A study of Drosophila melanogaster and Drosophila miranda with 8 samples.

Results

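The CLAMP peaks of Muller element B were all peaks called on chromosome arm 2L of *D. melanogaster* and on the scaffold named Muller-B of *D. miranda*, the same ancestral chromosome arm in both flies and an autosome in both. On 2L, 1624 of the 9080 peaks of replicate 1 and 1603 of the 8792 peaks of replicate 2 were found. On Muller-B there were 699 of 3577 peaks in replicate 1 and 2518 of 12523 in replicate 2. The 4 lists together held 6444 peaks of element B among 33972. Every list is described by itself, because the species and even the replicates of a species differed in how many peaks were called.

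The study profiled CLAMP by ChIP-seq in wild type female larvae of the third instar, with anti-CLAMP antibody, from chromatin pooled over many larvae. *D. miranda* larvae were kept at 18 °C and *D. melanogaster* larvae at 21 °C, so species and temperature cannot be told apart. The 8 libraries were 4 ChIP libraries, 2 for each species, and 4 inputs. Input DNA enters through the peak calls and through the peak values, which were read as ratios to input. The lists hold no read counts, and the read numbers that the study states for its libraries were not used here.

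Muller elements are the chromosome arms whose gene content has largely been kept together while the arms fused in different ways in different *Drosophila* species. CLAMP is a zinc finger protein that binds GA-rich sequence all over the genome, on autosomes and on the X-chromosome, and that helps bring the male-specific lethal (MSL) dosage compensation complex to the X-chromosome of males. Element B has not become a sex chromosome in either species, so its peaks show CLAMP occupancy on an autosome. All libraries came from females, so comparisons with the X-chromosomes do not set element B against chromosomes compensated by the MSL complex. The other autosomes were 2R, 3L, 3R and 4 in *D. melanogaster*, and Muller-E and Muller-F in *D. miranda*. The X-chromosomes were X in the first species, and XL, XR and the recently formed neoX in the second.

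In *D. melanogaster*, the density of CLAMP peaks on 2L did not differ from that on the X-chromosome by more than counting error, and in 1 of the 2 replicates it was lower than on the other autosomes. In *D. miranda*, Muller-B had the lowest peak density of the 6 assembled chromosomes in both replicates, but only its difference from the X-chromosomes in replicate 2 passed the test. Densities were compared with an exact conditional binomial test, two-sided, adjusted by the Benjamini-Hochberg method over 8 tests. Its intervals cover counting error only, because the peaks of 1 library are not independent replicates. Counts along some chromosomes varied by more than counting error. In windows of 1 Mb their variance over their mean was 2.70 on 2L in *D. melanogaster* replicate 1 and 2.51 on Muller-B in *D. miranda* replicate 2. Both were the highest of their list. The 4 other chromosomes with enough windows ranged between 1.17 and 2.48 in the first list and between 0.943 and 1.85 in the second. The intervals in these lists are therefore likely too narrow and the p-values too small.

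In replicate 1 of *D. melanogaster*, 2L carried 70.7 peaks per Mb, against 77.4 on the other autosomes, a ratio of 0.913 (95% interval 0.863 to 0.965, exact adjusted p = 0.00893). Of the other autosomes 3R had the highest density, 84.7 peaks per Mb, against 73.7 on 2R, 72.6 on 3L and 72.3 on 4. Without 3R the ratio of 2L to the other autosomes was 0.967 (0.911 to 1.03, exact adjusted p = 0.429). This alternative was chosen after the densities were seen, and leaving out the densest arm had to bring the ratio nearer to 1. In replicate 2, 2L carried 69.7 peaks per Mb against 70.2 on the other autosomes, a ratio of 0.994 (0.939 to 1.05, exact adjusted p = 0.929). The difference of 2L from the other autosomes was past the threshold in a single replicate. Against the X-chromosome, 2L had 70.7 peaks per Mb and X 69.9 in replicate 1, a ratio of 1.01 (0.942 to 1.08). In replicate 2 the values were 69.7 on 2L and 70.0 on X, a ratio of 0.996 (0.929 to 1.07), and the exact adjusted p was 0.929 in both replicates.

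On Muller-B of *D. miranda*, replicate 1 had 24.3 peaks per Mb, against 26.3 on the other autosomes, a ratio of 0.923 (0.835 to 1.02, exact adjusted p = 0.230). Replicate 2 had 87.4 peaks per Mb on Muller-B, against 90.5 on the other autosomes, a ratio of 0.966 (0.916 to 1.02, exact adjusted p = 0.320). Neither difference was larger than counting error. Against the 3 X-chromosomes pooled, Muller-B had 24.3 peaks per Mb and the X-chromosomes 26.9 in replicate 1, a ratio of 0.903 (0.827 to 0.985, exact adjusted p = 0.0568). In replicate 2 Muller-B had 87.4 and the X-chromosomes 93.8, a ratio of 0.932 (0.890 to 0.975, exact adjusted p = 0.00915). Against a single X-chromosome of replicate 2, Muller-B stayed past the threshold only beside XR, with a ratio of 0.916 (exact adjusted p = 0.00573). In replicate 1 the ratios were 0.880 beside XL, 0.927 beside XR and 0.896 beside neoX, none past the threshold. The comparisons with single X-chromosomes were chosen after seeing the data. Their adjustment did not count that 3 X-chromosomes were tried.

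**Figure D1:**
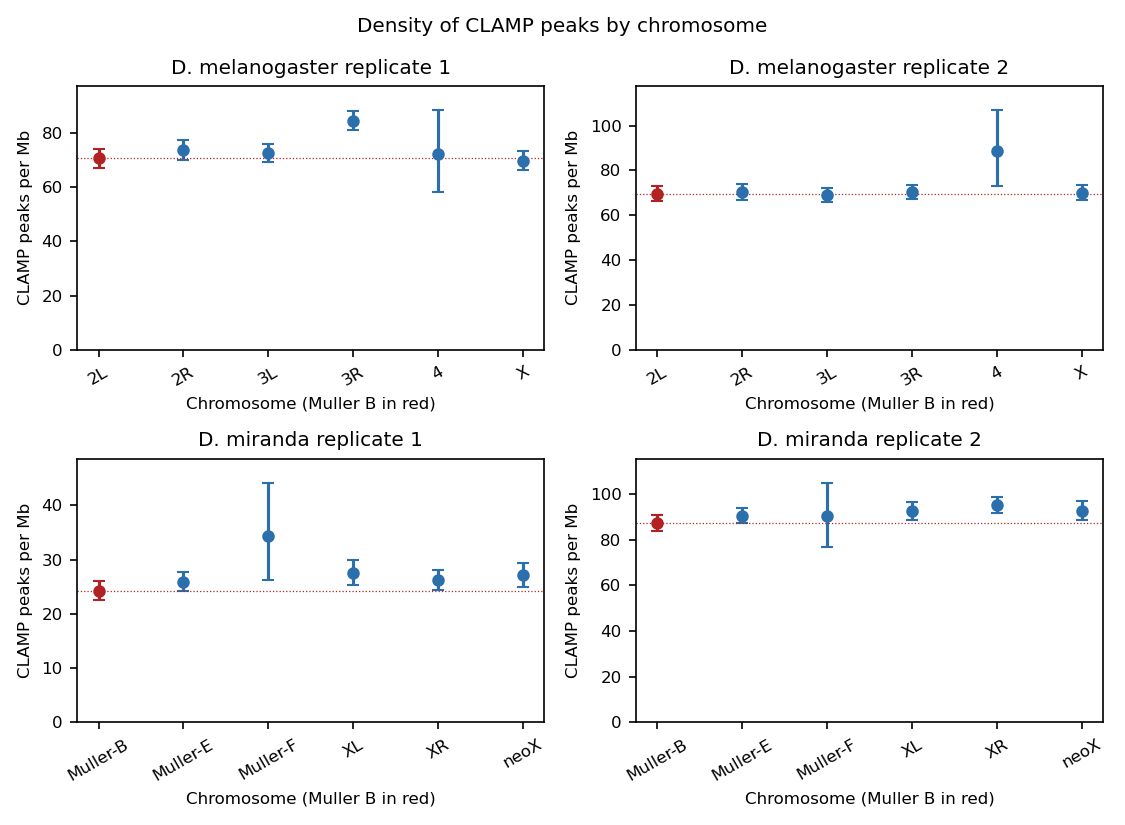
CLAMP peaks per Mb (y axis) on each assembled chromosome (x axis) in the 4 peak lists, with Muller element B in red and its level drawn as a dotted line. Bars are exact 95% Poisson intervals of the counts, and Muller-B is the lowest point in both *D. miranda* panels, at 24.3 and 87.4 peaks per Mb.

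Muller-B was also the lowest of the *D. miranda* chromosomes in the share of its length under peaks. Peaks covered 10.3% of 2L in replicate 1 and 11.1% in replicate 2. On Muller-B they covered 3.46% in replicate 1 and 13.2% in replicate 2. The other 5 chromosomes of *D. miranda* ranged between 3.76% and 5.96% in replicate 1 and between 13.7% and 15.5% in replicate 2. Neighbouring peaks on Muller-B lay a median of 29.4 kb apart in replicate 1 and 7.95 kb apart in replicate 2, the widest median spacing of the 6 chromosomes in both. On 2L the median spacing was 8.96 kb in replicate 1 and 10.1 kb in replicate 2.

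The median peak of element B was between 1245 and 1468 bp wide. On 2L the median width was 1300 bp in replicate 1 (quartiles 1000 and 1836 bp) and 1468 bp in replicate 2 (1142 and 1936 bp). On Muller-B it was 1245 bp in replicate 1 (1000 and 1867 bp) and 1356 bp in replicate 2 (1067 and 1786 bp). No peak was narrower than 1000 bp, and the share of element B peaks at exactly that width differed between lists, with 25.3% and 4.68% on 2L and 31.2% and 15.8% on Muller-B in replicates 1 and 2. Muller-B had the lowest median width of the 6 *D. miranda* chromosomes in both lists, but by small margins, since the next chromosome stood at 1280 bp in replicate 1 and 1369 bp in replicate 2. On 2L the median was the lowest in replicate 2 only.

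The value attached to each peak was read as the log2 ratio of ChIP to input. On 2L the median value was 3.12 in replicate 1 (quartiles 2.84 and 3.49, highest 6.10), the same median as on each of the other 5 chromosomes. In replicate 2 the median on 2L was 2.28 (1.92 and 2.80, highest 6.97), against 2.18 on 2R, 2.21 on 3L, 2.09 on 3R, 3.00 on 4 and 2.27 on X. On Muller-B the median was 3.96 in replicate 1 (3.18 and 4.55, highest 5.96) and 1.90 in replicate 2 (1.61 and 2.24, highest 4.61). The values came in steps, more coarsely in replicate 1 of each species. On 2L in replicate 1, 233 peaks (14.3%) had the single value 2.84, and on Muller-B in replicate 1, 88 peaks (12.6%) had the value 4.96. In replicate 2 the most common value was held by 1.56% of the 2L peaks and 6.67% of the Muller-B peaks.

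The share of the highest peaks that lay on 2L was larger in replicate 2 than in replicate 1, a difference that was not tested. In replicate 2, 2L held 29 of the 102 highest assembled peaks (28.4%) and 250 of the 1061 highest (23.6%), beside 19.0% of all assembled peaks. In replicate 1 it held 18 of the 104 highest assembled peaks (17.3%) and 231 of the 1129 highest (20.5%), beside 18.1% of all assembled peaks. When only the 50% of peaks with the highest value were kept in replicate 2, 2L had 38.6 peaks per Mb against 33.6 on the other autosomes, a ratio of 1.15 (1.06 to 1.24, exact adjusted p = 0.00318). With all peaks of that list the ratio was 0.994 (0.939 to 1.05), no difference beyond counting error. Whether 2L differed from the other autosomes therefore depended on the value above which peaks were counted. Among the 1061 highest peaks of that list, 3R held 154 (14.5%), beside 23.3% of all assembled peaks. X held 230 of them (21.7%), beside 18.6% of all, and with the 50% of highest value the ratio of 2L to X was 1.02 (0.923 to 1.12). On Muller-B, 18 of the 112 highest peaks of replicate 1 (16.1%) and 23 of the 116 highest of replicate 2 (19.8%) were found, beside 19.5% and 20.1% of all peaks.

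How width went with value was not the same in the lists. On 2L the Spearman correlation of width with value was 0.62 over 1624 peaks in replicate 1 and -0.23 over 1603 peaks in replicate 2. On Muller-B it was -0.47 over 699 peaks in replicate 1 and -0.30 over 2518 in replicate 2. The sign was the same on every chromosome of a list, so it belonged to the list and not to element B. Peaks of 1 library share its depth and its input, and these correlations are descriptions.

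Along the element, the peak counts of the replicates went together on Muller-B and hardly on 2L, a difference that was not tested. In windows of 1 Mb, the counts of the 2 replicates had a Pearson correlation of 0.61 and a Spearman correlation of 0.52 over the 28 windows of Muller-B, and a Pearson correlation of 0.46 without the 2 farthest windows. Over the 22 windows of 2L the correlations were 0.08 and 0.02, and 0.01 without the 2 farthest windows. The windows of a pair of lists share the sequence of the element, and the correlations are given with no test. Other chromosomes ranged widely too, between -0.16 on XR and 0.54 on neoX in *D. miranda*, and between -0.03 on 2R and 0.50 on X in *D. melanogaster*.

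A poor stretch lay in the first part of Muller-B in both replicates. The window of 5 to 6 Mb held 12 peaks in replicate 1 and 52 in replicate 2, and the window of 6 to 7 Mb held 16 and 47, whereas the median window held 23.0 and 86.5. These were the 2 poorest windows of either list. The richest was the window of 8 to 9 Mb in both, with 38 peaks in replicate 1 and 106 in replicate 2, and with 16 of the regions shared by the replicates. When, on every chromosome, the 2 windows poorest in the other replicate were left out, Muller-B in replicate 2 had 90.2 peaks per Mb against 89.8 on the other autosomes, a ratio of 1.00 (0.952 to 1.06). The ratio to the X-chromosomes then became 0.963 (0.919 to 1.01, exact adjusted p = 0.313). The lower density of Muller-B in replicate 2 was no longer past the threshold without these windows. They were also the poorest of replicate 2, so leaving them out had to raise the density of Muller-B. On XL and XR the window counts of the replicates had Pearson correlations of -0.06 and -0.16, so windows left out there need not be poor in replicate 2. This removal therefore cannot show that the lower density rests on the poor stretch. How many bases of the 2 poor Muller-B windows could be aligned uniquely was not tested.

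On 2L the window of 17 to 18 Mb was the poorest of replicate 1, with 32 peaks, but held 70 peaks in replicate 2, close to the median of 69.0 of that list. The richest window of replicate 1 was that of 5 to 6 Mb, with 93 peaks in replicate 1 and 67 in replicate 2. In replicate 2 the richest was that of 16 to 17 Mb, with 87 peaks, and the poorest that of 6 to 7 Mb, with 53. No window was an extreme of both lists. The variance of the window counts over their mean was 2.70 on 2L in replicate 1 and 1.26 in replicate 2, and on Muller-B 1.24 in replicate 1 and 2.51 in replicate 2.

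**Figure D2:**
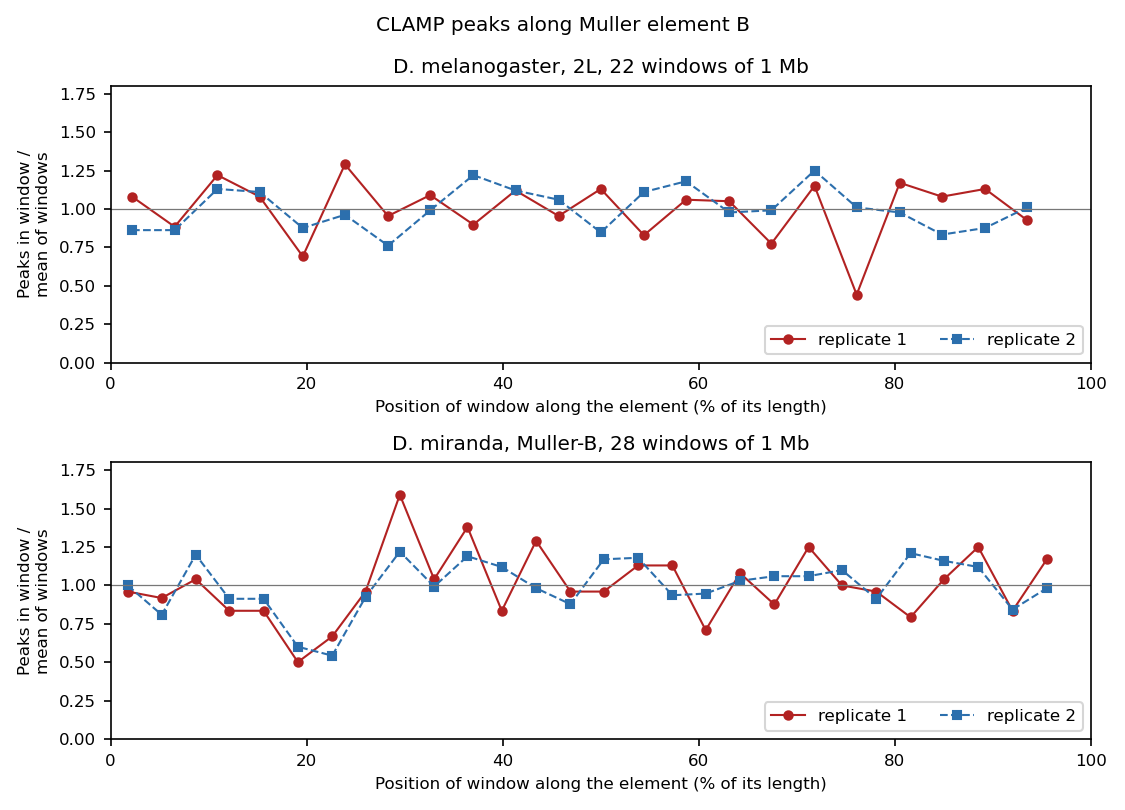
Peaks in each 1 Mb window over the mean of the windows (y axis) against the position of the window in percent of the length of the element (x axis), for replicate 1 (red circles) and replicate 2 (blue squares). On Muller-B both lists dip between 19.1% and 22.6% of the length, to 0.501 and 0.668 in replicate 1 and to 0.601 and 0.543 in replicate 2, whereas the dip of 2L at 76.1%, to 0.442, is in replicate 1 alone.

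The longest stretch of 2L with no peak in either list was 2L:21406135-21542661 (dm3), 137 kb. Replicate 2 had no longer gap, and in replicate 1 the gap around it was 236 kb long and held 10 peaks of replicate 2. The tandemly repeated histone genes of *D. melanogaster*, whose regulatory DNA CLAMP is known to bind, lie on 2L, where the RefSeq table of genes names 111 histone genes. Their positions in dm3 were not used here, and whether they lie in this stretch was not tested. The study kept uniquely aligned reads only, so repeated sequence may lack peaks whether or not CLAMP is bound there. How much of the 137 kb stretch could be aligned uniquely was not tested. On Muller-B the longest stretch without a peak in either list was Muller-B:11661531-11779358, 118 kb, in the published *D. miranda* assembly. Replicate 1 alone had a longer one, Muller-B:17541985-17901336, of 359 kb, in which replicate 2 had 26 peaks.

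With all peaks kept, between 10.2% and 35.3% of the peaks of element B overlapped a peak of the other replicate, about the share found on the other autosomes of the same list. On 2L, 409 of 1624 peaks of replicate 1 (25.2%, 95% interval 23.1 to 27.4) overlapped a replicate 2 peak by at least 1 bp, against 25.2% on the other autosomes and 25.7% of all assembled peaks. Of the 1603 peaks of replicate 2, 409 (25.5%, 23.4 to 27.7) overlapped a replicate 1 peak, against 27.7% on the other autosomes and 27.4% of all. On Muller-B, 247 of 699 peaks of replicate 1 (35.3%, 31.8 to 39.0) were shared, against 37.0% on the other autosomes and 37.5% of all. In replicate 2, 256 of 2518 (10.2%, 9.01 to 11.4) were shared, against 10.9% on the other autosomes and 10.9% of all. The adjusted p by Fisher's exact test, two-sided over 4 lists, was 1.00 and 0.334 for the replicates of 2L and 0.708 for both of Muller-B. The shares of Muller-B differ between replicates by construction, since replicate 2 holds far more peaks. With both *D. miranda* lists reduced to the same number of peaks, those of highest value, 51 of 699 Muller-B peaks of replicate 1 (7.30%) were shared, against 9.08% on the other autosomes. In replicate 2, 50 of 736 (6.79%) were then shared, against 8.98%, and the exact adjusted p was 0.284 in both. On 2L such lists gave 24.9% in replicate 1 and 24.2% in replicate 2, against 24.8% and 25.8% on the other autosomes.

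The shared peaks were fewer under stricter rules, and element B stayed near its background. With a reciprocal overlap of 50%, 12.0% and 12.2% of the 2L peaks of replicates 1 and 2 were shared, against 12.7% and 13.6% of all assembled peaks. On Muller-B the shares were 16.7% and 4.65%, against 19.6% and 5.60% of all. With centres within 200 bp, 81 peaks of 2L were shared, 4.99% of replicate 1 and 5.05% of replicate 2, against 5.11% and 5.45% of all. On Muller-B 45 peaks were shared, 6.44% of replicate 1 and 1.79% of replicate 2, against 7.49% and 2.14% of all.

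Peak centres of element B fell into peaks of the other replicate more often than the length covered by those peaks. On 2L, 16.2% of the replicate 1 centres lay in replicate 2 peaks, which covered 11.1% of the arm, and 15.0% of the replicate 2 centres lay in replicate 1 peaks, which covered 10.3%. On Muller-B, 23.3% of the replicate 1 centres lay in the 13.2% covered in replicate 2, and 6.04% of the replicate 2 centres lay in the 3.46% covered in replicate 1. Every other chromosome showed such an excess too. In *D. melanogaster* the shares of their centres were 15.5% to 23.7% in replicate 1 and 15.3% to 18.4% in replicate 2. In *D. miranda* they were 24.3% to 41.0% in replicate 1 and 6.51% to 15.0% in replicate 2, so the excess was not particular to element B. These shares are descriptions, with no test of placement.

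The widest peaks of element B were the most often shared, as were those of the other autosomes. In replicate 1 of *D. melanogaster* 34.8% of the 2L peaks in the widest quartile of the list were shared, against 22.4% of those in the narrowest quartile. In replicate 2 the shares were 37.6% in the widest quartile and 18.8% in the narrowest. In replicate 1 of *D. miranda* 56.9% of the Muller-B peaks in the widest quartile were shared, against 24.8% in the narrowest, and in replicate 2 the widest quartile reached 19.1% against 5.98%. On the other autosomes the widest and the narrowest quartile stood at 34.1% and 20.0% in replicate 1 and at 38.1% and 21.0% in replicate 2 of *D. melanogaster*. In *D. miranda* they stood at 52.5% and 24.5% in replicate 1 and at 19.7% and 7.46% in replicate 2, so this order was not particular to element B. A wide peak covers more sequence and can overlap more easily, and the part of width by itself was not tested. Peak value did not order the shares in the same way. The 2L peaks in the quartile of highest value were shared in 29.8% of cases in replicate 1, against 24.9% in the lowest quartile, but in 22.5% in replicate 2, against 29.0% in the lowest quartile. On Muller-B the peaks of highest value were the least often shared, 28.4% against 42.8% in the lowest quartile of replicate 1 and 6.96% against 13.0% in that of replicate 2. By value the other autosomes had shares of 30.5% in the highest and 23.4% in the lowest quartile of *D. melanogaster* replicate 1, and 26.7% and 28.9% in replicate 2. In *D. miranda* they had 30.1% and 44.0% in replicate 1, and 8.96% and 15.8% in replicate 2.

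**Figure D3:**
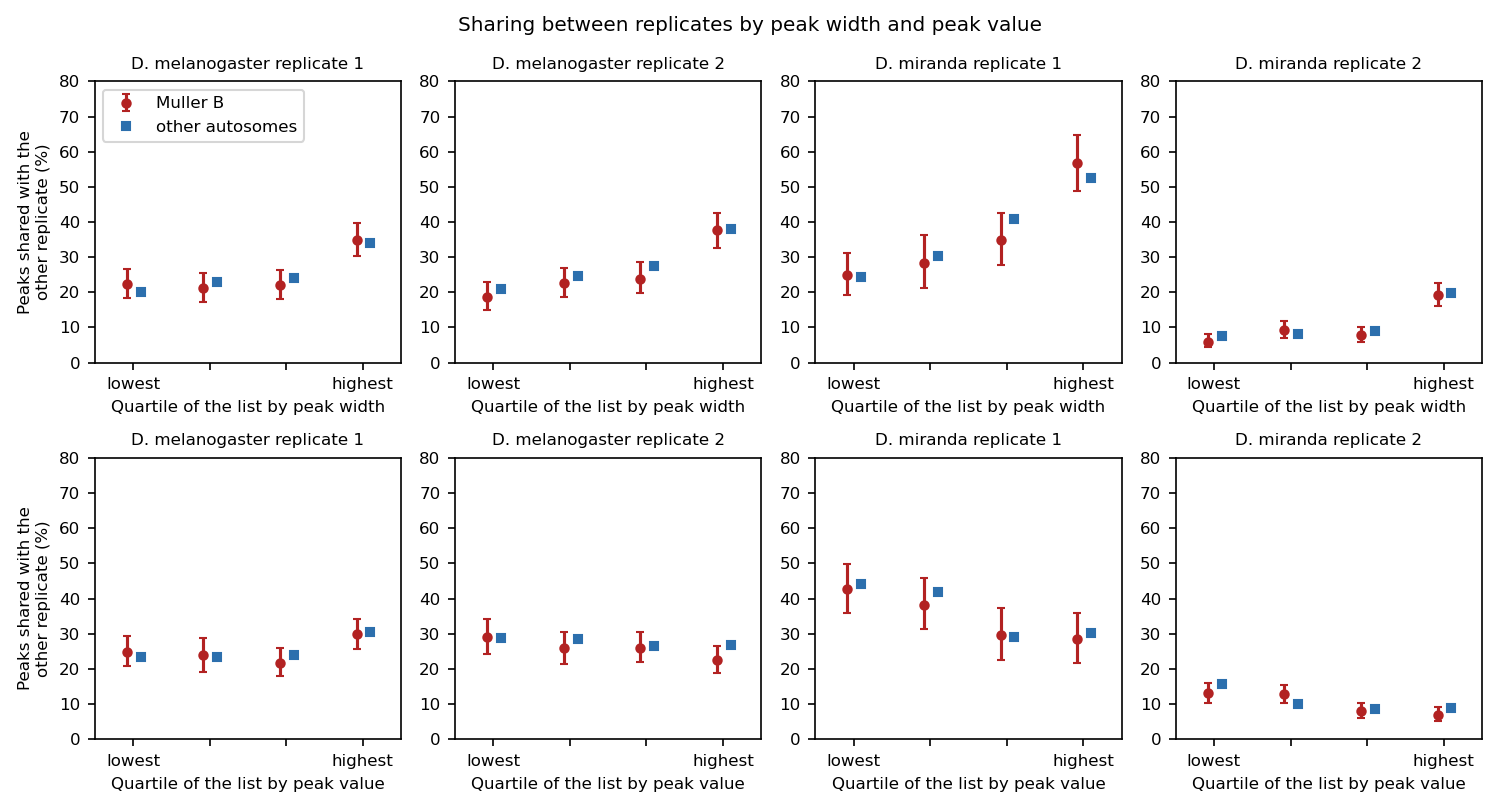
Percent of peaks that overlap a peak of the other replicate (y axis) by quartile of the list (x axis), in order of peak width (upper row) and peak value (lower row), for Muller element B (red circles, with exact 95% binomial intervals) and the other autosomes (blue squares). On element B the widest quartile has the highest share in all 4 lists, between 19.1% and 56.9%, whereas by value the highest quartile has the highest share only in *D. melanogaster* replicate 1.

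Merged over both replicates, the shared peaks gave 392 regions on 2L and 243 on Muller-B. They lay at 17.1 per Mb on 2L against 18.7 on the other autosomes, a ratio of 0.911 (0.812 to 1.02, exact adjusted p = 0.193 by the exact conditional binomial test over 2 species). On Muller-B they lay at 8.44 per Mb against 9.44 on the other autosomes, a ratio of 0.894 (0.754 to 1.06, exact adjusted p = 0.193). Neither difference was past the threshold. A single peak of each list made up 363 of the 392 regions of 2L and 226 of the 243 of Muller-B, and the rest joined more peaks. The median width of a region was 2305 bp on 2L and 2215 bp on Muller-B.

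The height of a shared region in one replicate said little about its height in the other. Across the 392 regions of 2L the values of the replicates had a Pearson correlation of 0.12 and a Spearman correlation of 0.09. Across the 243 regions of Muller-B the correlations were 0.29 and 0.30. On the other chromosomes the Pearson correlation ranged between -0.02 and 0.16 in *D. melanogaster* and between 0.16 and 0.36 in *D. miranda*. Regions in the highest quartile of both lists numbered 41 on 2L (10.5%) and 13 on Muller-B (5.35%). These shares lay within the range of the other chromosomes, 6.42% to 12.9% in *D. melanogaster* and 1.45% to 10.3% in *D. miranda*.

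**Figure D4:**
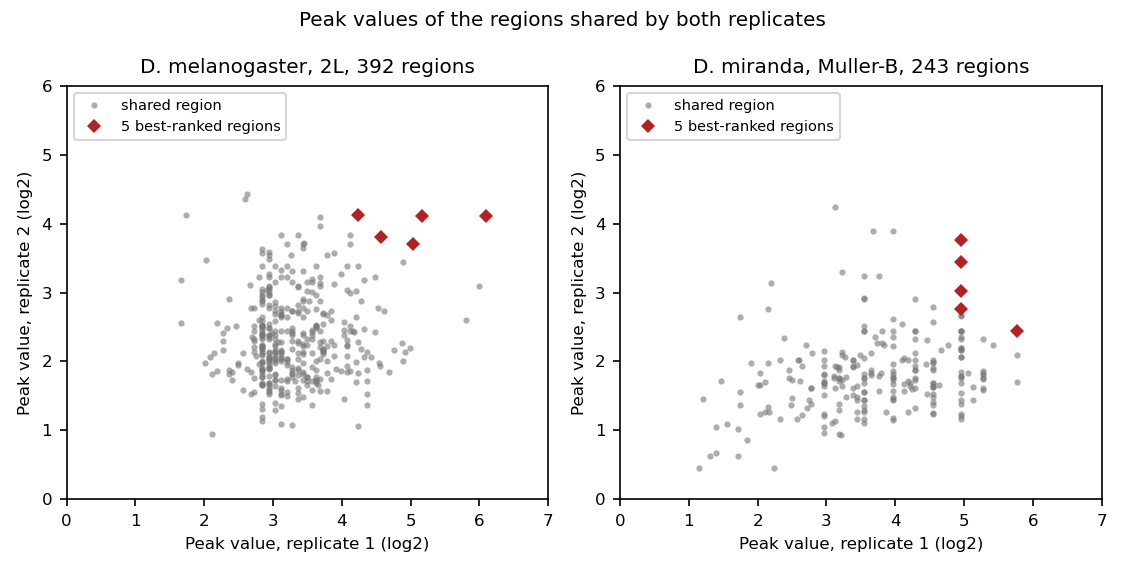
Highest peak value (log2 ratio of ChIP to input) of each shared region in replicate 2 (y axis) against replicate 1 (x axis), for the 392 regions of 2L and the 243 regions of Muller-B, with the 5 regions of best mean rank as red diamonds. The points form no line in either panel (Pearson correlation 0.12 on 2L and 0.29 on Muller-B), and 4 of the 5 marked Muller-B regions share the value 4.96 in replicate 1.

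The 5 shared regions of each element with the best mean rank of value over both lists are named here, with dm3 positions on 2L. The region first in rank on 2L, 2L:7529504-7532043, had values of 6.10 in replicate 1 and 4.11 in replicate 2, within the highest 0.0445% and 2.11% of the lists. Its replicate 1 peak was the highest on 2L and the fourth of all 8987 assembled peaks. The next, 2L:16485377-16487816, had 5.17 and 4.11. The region 2L:2192496-2203592 had 5.03 and 3.70 and was the longest of the 5 at 11097 bp, joined from 3 peaks of each replicate. The last of the 5 were 2L:22457461-22460583, with 4.24 and 4.12, and 2L:12363382-12367299, with 4.57 and 3.81.

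On Muller-B the region first in rank was Muller-B:8106957-8108337, in the rich window of 8 to 9 Mb, with values of 4.96 in replicate 1 and 3.76 in replicate 2. The second, Muller-B:5778567-5779818, lay in the poor window of 5 to 6 Mb, with 4.96 and 3.44. The third, Muller-B:23258380-23263409, had the highest replicate 1 value of the 5, 5.77, but 2.44 in replicate 2, and was 5030 bp long. The regions Muller-B:16281483-16284228, with 4.96 and 3.02, and Muller-B:12168865-12170022, with 4.96 and 2.76, completed the list. In the 4 regions at 4.96 the replicate 1 peak had the narrowest width, 1000 bp, and that value placed them only within the highest 15.7% of replicate 1.

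The single highest peak of element B was shared in 1 of the 4 lists, that of 2L replicate 1 named above. Of all assembled peaks, 25.7% and 27.4% were shared in replicates 1 and 2 of *D. melanogaster*, and 37.5% and 10.9% in those of *D. miranda*. So few single peaks cannot be told from that background. The highest 2L peak of replicate 2, 2L:4601558-4602576, had a value of 6.97 and a width of 1019 bp, and had no partner in replicate 1. The highest of Muller-B were Muller-B:94395-95643 in replicate 1, which had the value 5.96 in common with 2 other Muller-B peaks, and Muller-B:23635963-23637907 in replicate 2, with 4.61. Neither overlapped a peak of the other replicate. The widest peaks were 2L:20622045-20627065 in replicate 1 (5021 bp, value 4.99) and 2L:12583183-12589495 in replicate 2 (6313 bp, value 2.47), and Muller-B:19875881-19880234 in replicate 1 (4354 bp, value 3.45) and Muller-B:18969283-18974923 in replicate 2 (5641 bp, value 1.06). Of these 4, 1 was shared, that of Muller-B replicate 1.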

How the data were processed

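Peak lists of the 4 CLAMP ChIP libraries were analysed. According to the study's methods, reads were aligned uniquely to dm3 in one species and to a published assembly in the other, anomalous positions were removed, tag counts were scaled by library size and peaks were called per replicate with SPP at default parameters, whose version is not given in the sources used here. The submitters' processing notes name Bowtie and dm3. The seventh column, unnamed in the deposited lists, was read here as the log2 ratio of ChIP to input. The authors describe enrichment as such a ratio but do not name the column or a log scale, and the reading rests on its values, many of which lay exactly 1, or log2 of 1.5, apart. The remaining score columns were constant.

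The position at which the last peak of a species ended, over both lists, stood for the length of a chromosome, 23.0 Mb for 2L and 28.8 Mb for Muller-B. Starts are given 1-based. Scaffold names follow the lists (Muller-A is XL, Muller-AD is XR, Muller-C is neoX). Peaks on unassembled or heterochromatic sequence of *D. melanogaster* were left out of comparisons, and the depth of the libraries cannot be read from the lists. An exact conditional binomial test was used for densities and Fisher's exact test for shared peaks (two-sided, Benjamini-Hochberg adjusted, threshold 0.05). They were run in Python 3.11.15 with numpy 2.4.6, pandas 2.3.3 and SciPy 1.17.1. The density test, the overlap rules and the merging of regions were checked on simulated data, and Fisher's test was not. The simulated counts held counting error only, so the check does not cover counts that vary by more. Plots were drawn with matplotlib 3.10.9. Named regions were the 5 shared regions of best mean rank per element, the highest and the widest peak of each list, the richest and poorest 1 Mb windows, and the longest gaps. Gaps of single replicates were added after their values were seen. Members and lists were chosen with earlier results of these data known. Alternatives were other lengths, subsets of peaks and autosomes, other overlap rules and each replicate alone. No genome or gene annotation of these builds was used here, so neither sequences under the peaks nor genes at the regions are given.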

Additional observations from a re-analysis of the deposited data

Results flagged for a closer look

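Replicate 2 of *D. melanogaster* listed 8 peaks on 2LHet, the heterochromatic sequence assigned to 2L, against 0 in replicate 1. These peaks were not counted as peaks of 2L and enter no comparison.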

How the results depend on the processing

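Library depth was not used here, and a peak missing from 1 list may not have been detectable in it. With the 50% of peaks of highest value, the ratio of Muller B to the other autosomes became 0.935 in *D. melanogaster* replicate 1 (exact adjusted p = 0.163) and 1.15 in replicate 2 (exact adjusted p = 0.00318), and that to the X-chromosomes 1.02 in *D. melanogaster* replicate 2, 0.854 in *D. miranda* replicate 1 (exact adjusted p = 0.0307) and 0.937 in *D. miranda* replicate 2 (exact adjusted p = 0.125). The following alternatives were chosen after seeing the data. Without 3R the ratio to the other autosomes in *D. melanogaster* replicate 1 was 0.967. Without the 2 windows poorest in the other list it was 1.00 in *D. miranda* replicate 2, and the ratio to the X-chromosomes was 0.996 in *D. melanogaster* replicate 1 and 0.963 in *D. miranda* replicate 2. Against XL alone that *D. miranda* list gave 0.943, against neoX alone 0.941 and against XR alone 0.916. The cause was not tested in any of these. The difference in shared peaks of *D. melanogaster* replicate 1, Muller B minus other autosomes, changed sign to 0.0869 percentage points with centres within 200 bp, 0.0795 with lists of equal length and 0.141 without chromosome 4, none past the threshold. Each replicate alone gave ratios between 0.913 and 0.994 in *D. melanogaster* (exact adjusted p = 0.00223 without replicate 2) and between 0.923 and 0.966 in *D. miranda*, in place of shared regions. The median width on Muller B in peaks wider than the narrowest width was 1534 bp in *D. melanogaster* replicate 1, 1643 bp in *D. miranda* replicate 1 and 1471 bp in *D. miranda* replicate 2. In shared peaks it was 1432 and 1706 bp in *D. melanogaster* replicates 1 and 2 and 1610 and 1718 bp in *D. miranda* replicates 1 and 2. Of the alternatives run, 26 of 30 for the density against other autosomes, 19 of 26 for that against the X-chromosomes, 13 of 16 for sharing, 11 of 12 for shared regions and 9 of 16 for the medians kept their direction and side of the threshold, or moved by less than the spread. Chromosomes 4 and Muller-F drop out where the ends of 1 Mb are left out. The sequence under the peaks was not analysed here. No paired analysis was possible because each list was compared within itself and the replicate numbers of the species mark no shared sample.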
